A study of Mus musculus with 158 samples.

Results

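Pool 16 is a set of 54 short hairpin RNAs (shRNAs) against 30 mouse genes. Its members were taken by the pool name that the deposited tables give each hairpin, and they make up 54 of the 1000 targeting hairpins of the screen. Of the 30 genes, 9 were covered by 1 hairpin, 18 by 2 hairpins and 3 by 3 hairpins. The hairpins were carried by PDA530 Met, a mouse pancreatic cancer line grown out of a liver metastasis. The day 0 group holds 3 libraries, 16A, 16D and 16E, made from pellets of cells that had been infected with the viral pool and selected with puromycin. The culture group holds 5 libraries of the same infected and selected line after 28 days of growth in dishes. Of these, 16/17A, 16/17B and 16/17C are named for pools 16 and 17 together, and 16D and 16E for pool 16 alone. Lung tumours taken 28 days after tail-vein injection gave 1 library that could be described, 16E. The other, lung library 16D, was left out because 0.677% of its reads belonged to pool 16 and 71.0% to pool 10. All groups share the cell line, infection with the viral pool and puromycin selection, so every value comes from a single cell line. The labels do not say whether the letters stand for separate infections or separate dishes, so p-values may measure technical spread only.

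A short hairpin RNA is cut by the cell into a small RNA that lowers the messenger RNA of its target gene. Each hairpin integrates into the genome, so counting hairpin DNA counts the descendants of the cells that took it up. A hairpin that slows growth becomes rarer over weeks of culture and one that speeds growth becomes commoner. Different hairpins against 1 gene can differ in how well they silence it and in which other transcripts they touch, which is why screens use several per gene.

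Total depth was 4122499 to 6175034 reads at day 0 and 4985247 to 6730971 reads in culture. Pool 16 itself held between 1955454 and 4384875 of them in each library. The rarest hairpin in any library still had 48 reads. Over the hairpins together the libraries differed by more than sampling noise, though this need not hold for each rare hairpin. Pool 16 made up 70.6% to 72.3% of the reads at day 0, 76.6% and 82.3% in the cultures named for it alone, and 29.3% to 38.0% in the 3 named for both pools. Pool 17 held 38.4% to 47.9% of the reads in those 3. Hairpins of pool 10 stood out in culture 16/17A, with 14.9% of its reads, and reached 2.10% in culture 16E, against at most 0.136% in the day 0 libraries. Every share of a targeting hairpin below is its part of the reads of the 54 hairpins within the same library, so reads of other pools and of controls do not enter it. Library values are listed in the order 16A, 16D, 16E at day 0 and 16/17A, 16/17B, 16/17C, 16D, 16E in culture. A log2 change is culture minus day 0 on log2(share + 1), with the share in reads per 1000000 pool 16 reads, fitted with limma, and adjusted p-values are Benjamini-Hochberg values over 945 hairpins of 18 pools.

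After 28 days of culture the pool had narrowed to fewer hairpins. A hairpin against Nras, a small GTPase that passes growth signals from receptors to the MAP kinase cascade, grew to about 29.4% of all pool 16 reads, from 7.33%. All 3 hairpins against the transcription factor subunit Nfyb and both against the DNA-dependent protein kinase Prkdc fell in share. So did 2 of the 3 against Slit2, 2 of the 3 against the signal recognition particle protein Srp68 and 1 of the 2 against the PI3-kinase subunit Pik3cd. Both hairpins against each of Ttn, Sema4b, Pvrl2 and Ryr3 fell as well. The largest fall was that of a hairpin against Ryr2 (log2 change -3.97). Of the 54 hairpins, 30 passed an adjusted p of 0.05 in limma, 5 of them higher and 25 lower in culture. That is 55.6% of the pool, against 65.1% of all 945 hairpins. The share called lower was 46.3% in pool 16 and 47.8% over all pools, and the share called higher 9.26% and 17.2%. These shares lie near or below the background, and the counts alone do not mark pool 16 out. The median log2 change was -0.88 in pool 16 and -0.64 over all hairpins. With edgeR on the recovered reads 28 of the 54 were called, all of them among these 30, against 62.0% of all hairpins.

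The 5 hairpins that rose made up 14.6% of the mean day 0 reads and 45.2% of the mean culture reads. The 25 that fell went from 47.3% to 13.6%, and the 24 that were not called from 38.1% to 41.2%. The ranges of the day 0 and culture shares did not overlap for 30 of the 54 hairpins, against 69.4% of all hairpins, and 28 of these 30 were also called. Most other pools have fewer culture libraries than pool 16. Ranges separate more easily with fewer libraries, so these figures are not like for like. Of the 30 called hairpins, 28 were called both with the 3 cultures named for both pools and with the 2 named for pool 16 alone, and all 30 had the same sign in both kinds.

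Because the reads of a library sum to a fixed total, a rise of 1 abundant hairpin lowers the shares of all others. The growth of the Nras hairpin by itself corresponds to a shift of -0.39 on the log2 scale for every other hairpin. TMM factors, which centre the libraries on the bulk of the hairpins, moved all log2 changes up by 0.78 and gave a median of -0.10. With them 31 hairpins were called, 13 higher and 18 lower, so that 41.9% of the calls were rises, against 16.7% with plain shares. Over all pools 60.6% of hairpins were called with TMM factors, 28.8% higher and 31.9% lower. All 5 rises and 18 of the 25 falls were called in the same direction under both scalings. The 7 falls called only on plain shares are named with their genes below, as are the 8 rises called only with TMM factors.

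The narrowing was measured as the effective number of hairpins, the number of equally abundant hairpins that would give the same Shannon entropy. It was 29.5, 28.5 and 29.9 in the day 0 libraries and 13.9, 14.4, 16.5, 13.0 and 16.0 in the cultures. The means were 29.3 ± 0.734 (SD, n = 3) and 14.8 ± 1.48 (SD, n = 5), a log2 difference of -0.996. Every culture lay below every day 0 library, and the exact two-sided permutation test gave p = 0.0357, the smallest value that 3 against 5 libraries allow. Across the 18 pools with values in both arms the same difference ran from -0.996 to -0.18, with a median of -0.48. Pool 16 lay at the low end of that range, and pool 17, which shares 3 of the culture libraries, came next with -0.84; whether pool 16 differs from the other pools was not tested.

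The 3 leading hairpins of a library held 24.9% to 26.4% of the pool 16 reads at day 0 and 47.0% to 56.7% in culture. It took 8 hairpins to reach 50% of the reads in each day 0 library and 3 or 4 in each culture. At day 0 the leaders were hairpins against Ccl20 and Nras, and the same hairpins had the highest mean shares in culture. The day 0 libraries were close to one another, with Pearson r of 0.992 between log2 shares over the 54 hairpins in all 3 pairs. Over the 10 pairs of cultures r was 0.894 to 0.960. The median SD of a hairpin's log2 share was 0.160 at day 0 and 0.490 in culture, and 51 of the 54 hairpins were more spread in culture.

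Growth signalling genes were covered by 6 hairpins, of which 1 rose, 1 fell and 4 were not called, beside 17.2% called higher and 47.8% lower over all hairpins. Their median log2 change was -0.53 on plain shares and 0.25 with TMM factors, so the sign of the group turns with the scaling. Nras hairpin TRCN0000348697 held 7.35%, 7.44% and 7.20% of the reads at day 0 and 27.4%, 28.2%, 24.3%, 36.3% and 30.8% in culture. The lowest culture was more than 3 times the highest day 0 library. The log2 change was 1.99 (SE 0.14, limma adjusted p = 2.58e-07), the largest rise of the pool and one called in every alternative scaling and test and without each library in turn. The second Nras hairpin, TRCN0000351826, began as the more abundant of the pair, with 8.66%, 8.94% and 8.88%, and held 10.2%, 9.62%, 8.82%, 7.34% and 8.43% in culture. Its cultures lay on both sides of day 0, and its log2 change was 0.00 with a 95% interval of -0.306 to 0.308. With TMM factors the change was 0.78 and was called higher. Both Nras hairpins together made up 16.0% to 16.4% of the pool at day 0 and 33.1% to 43.7% in culture.

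Pik3cd encodes the delta catalytic subunit of class I PI3-kinase, best known from white blood cells. Its hairpin TRCN0000361415 held 5.14%, 5.53% and 5.05% at day 0 and 1.25%, 0.971%, 1.02%, 1.32% and 1.11% in culture. All 5 cultures lay close together and far below day 0, and the log2 change was -2.22 (SE 0.18, limma adjusted p = 1.18e-06). The second Pik3cd hairpin, TRCN0000361345, was rare throughout, with 0.0058% to 0.0143% at day 0 and 0.0029% to 0.0177% in culture, and was not called (log2 change -0.37). Neither hairpin against Phlda2, an imprinted gene that limits placental growth, was called, with log2 changes of -0.83 and -0.68. For TRCN0000362831 of this gene the culture range lay wholly below the day 0 range all the same.

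Transcription and chromatin genes were covered by 10 hairpins, of which 1 rose, 4 fell and 5 were not called, near or below those shares over all hairpins (17.2% higher, 47.8% lower). The group's median log2 change was -0.86 on plain shares and -0.08 with TMM factors. Nfyb encodes a subunit of NF-Y, the factor that binds CCAAT boxes in promoters, and all 3 of its hairpins fell under both scalings. TRCN0000312855 held 0.742%, 0.755% and 0.729% at day 0 and 0.216%, 0.106%, 0.0823%, 0.0256% and 0.0442% in culture (log2 change -3.33, SE 0.59, limma adjusted p = 0.000502). The 2 cultures named for pool 16 alone were its lowest. TRCN0000312834 went from 1.89%, 1.96% and 1.70% to 0.628%, 0.423%, 0.462%, 0.611% and 0.338% (log2 change -1.95, SE 0.24, limma adjusted p = 4.02e-05). TRCN0000349712 went from 1.06%, 0.773% and 0.835% to 0.270%, 0.291%, 0.456%, 0.126% and 0.238% (log2 change -1.79, SE 0.36, limma adjusted p = 0.00118). For none of the 3 did a culture reach the day 0 range.

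Tsc22d1, a leucine zipper protein first found as induced by TGF-beta, was targeted by TRCN0000301933. This hairpin held 2.91%, 2.97% and 3.27% at day 0 and 3.81%, 5.02%, 5.24%, 6.63% and 7.82% in culture (log2 change 0.86, SE 0.22, limma adjusted p = 0.00552). The cultures named for pool 16 alone were its highest. Kdm5a is a demethylase of lysine 4 of histone H3. Its hairpin TRCN0000326191 fell, with a log2 change of -1.95 and culture shares of 0.124% to 0.258% against 0.71% to 0.874% at day 0. The other Kdm5a hairpin, TRCN0000326118, was abundant at 4.69% to 4.82% at day 0 and 3.37% to 5.48% in culture. Its log2 change was -0.06, not called, and 0.72, called higher, with TMM factors. Klf6 is a zinc finger factor, Mxd1 a partner of Max that opposes Myc, and Zfp64 a zinc finger protein. Their hairpins were not called on plain shares, with log2 changes of -0.47 for Klf6, -0.34 and -0.12 for Mxd1 and -1.25 for Zfp64. Without culture 16D the Zfp64 change was -1.56 and was called (limma adjusted p = 0.0316). Mxd1 TRCN0000347991 turned to 0.66 and was called higher with TMM factors.

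Genes of DNA repair, protein handling and membrane traffic were covered by 12 hairpins, of which 6 fell, none rose and 6 were not called, beside 47.8% called lower and 17.2% higher over all hairpins, with a median log2 change of -0.92. With TMM factors 4 were called lower and 1 higher, beside 31.9% and 28.8% over all hairpins, and the median was -0.14. Prkdc encodes the catalytic subunit of DNA-dependent protein kinase, which acts in the joining of broken DNA ends. Its hairpin TRCN0000361373 held 3.63%, 3.40% and 3.26% at day 0 and 0.524%, 0.645%, 0.595%, 0.705% and 1.09% in culture (log2 change -2.32, SE 0.25, limma adjusted p = 1.12e-05). TRCN0000361436 went from 0.496%, 0.439% and 0.557% to 0.198%, 0.171%, 0.243%, 0.0979% and 0.290% (log2 change -1.40, SE 0.35, limma adjusted p = 0.00457). Both Prkdc hairpins were lower in every culture than at day 0, though the second was not called with TMM factors (log2 change -0.62).

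Srp68 is a protein of the signal recognition particle, which brings ribosomes making secreted proteins to the endoplasmic reticulum. TRCN0000317214 went from 1.20%, 1.22% and 1.14% to 0.152%, 0.192%, 0.233%, 0.182% and 0.327% (log2 change -2.50, SE 0.26, limma adjusted p = 1.02e-05). TRCN0000349980 behaved alike, from 1.27%, 1.22% and 1.23% to 0.156%, 0.207%, 0.312%, 0.278% and 0.360% (log2 change -2.30, SE 0.28, limma adjusted p = 3.31e-05). The third Srp68 hairpin, TRCN0000349979, held 1.10%, 0.875% and 0.946% at day 0 and 0.569%, 0.949%, 0.812%, 0.540% and 0.690% in culture. Its ranges overlapped and it was not called (log2 change -0.48), so 2 of the 3 hairpins against this gene fell in the main fit. It was called lower without culture 16/17B (log2 change -0.59, limma adjusted p = 0.0413). The same held with only the cultures named for pool 16 alone (log2 change -0.67, limma adjusted p = 0.00686). With the replicate letters as a block it was called too (log2 change -0.70, limma adjusted p = 0.0445).

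The gene listed as BC003331, which RefSeq now calls Odr4, had 1 hairpin that fell, TRCN0000420014, with a log2 change of -1.88 and culture shares of 0.337% to 1.06% against 2.51% to 2.61% at day 0. Its other hairpin was not called (log2 change -0.59). Mall, a membrane protein of the MAL family, had 1 called hairpin, TRCN0000442469, with a log2 change of -0.73 that became 0.06, not called, with TMM factors. It was not called without day 0 library 16D or 16E (limma adjusted p = 0.0584 and 0.0571). The second Mall hairpin, TRCN0000448113, was not called (log2 change -0.60), although its culture range lay below its day 0 range, and it was called without culture 16/17C (log2 change -0.71, limma adjusted p = 0.0408). Hairpins against the endocytic adaptor Ehbp1 were not called, with log2 changes of -1.11 and -0.40. The single hairpin against Ube2m, the enzyme that conjugates NEDD8 to cullins, had a log2 change of 0.34, not called, and of 1.13, called higher, with TMM factors.

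Guidance and adhesion genes were covered by 11 hairpins, of which 8 fell, 1 rose and 2 were not called, beside 47.8% called lower and 17.2% higher over all hairpins. The median log2 change was -1.48 on plain shares and -0.69 with TMM factors, where 5 were called lower and 2 higher, beside 31.9% and 28.8% over all hairpins. No role group was tested against the other hairpins. Slit2 is a secreted ligand of Robo receptors that steers growing axons and other migrating cells. Its hairpin TRCN0000328112 held 5.86%, 5.87% and 5.28% at day 0 and 0.830%, 0.654%, 0.542%, 0.328% and 0.409% in culture (log2 change -3.43, SE 0.29, limma adjusted p = 1.74e-06). This was among the most abundant hairpins at day 0, and all of its cultures lay below 1% of the reads. TRCN0000328094 went from 1.70%, 2.12% and 2.18% to 0.285%, 0.247%, 0.354%, 0.401% and 0.683% (log2 change -2.43, SE 0.31, limma adjusted p = 4.73e-05). The third Slit2 hairpin, TRCN0000328111, held 0.441%, 0.323% and 0.434% at day 0 and 0.395%, 0.506%, 0.656%, 0.343% and 0.499% in culture. It was not called on plain shares (log2 change 0.24) and was called higher with TMM factors (log2 change 1.03). The 3 hairpins of this gene thus spanned 3.68 on the log2 scale, the widest gap within a gene of the pool.

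Semaphorins are guidance cues and plexins their receptors. Sema4b hairpin TRCN0000339430 held 5.27%, 5.35% and 5.02% at day 0 and 2.05%, 2.26%, 1.44%, 0.923% and 1.25% in culture (log2 change -1.79, SE 0.28, limma adjusted p = 0.000216). TRCN0000339360 held 6.28%, 5.52% and 5.46% at day 0 and 2.94%, 3.98%, 3.55%, 1.18% and 1.12% in culture (log2 change -1.37, SE 0.43, limma adjusted p = 0.018). Both fell in all 5 cultures and lay lowest in those named for pool 16 alone, but the second was not called with TMM factors (log2 change -0.58). Plxna1 had 1 hairpin, TRCN0000340523, rare at 0.0108% to 0.0117% at day 0 and 0.0011% to 0.0037% in culture (log2 change -2.22). Sema5b TRCN0000442166 was called lower (log2 change -1.48, limma adjusted p = 0.0285), yet its culture range of 0.0434% to 0.296% overlapped the day 0 range of 0.258% to 0.410%. It was not called with TMM factors (log2 change -0.69) or by edgeR (adjusted p = 0.0546). It was also not called without day 0 library 16A or 16E or culture 16/17C or 16E (limma adjusted p 0.0514 to 0.0939). The other Sema5b hairpin was not called (log2 change -0.94).

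Ptprd, a receptor-type tyrosine phosphatase, was the gene of this group whose hairpin rose. TRCN0000342210 held 1.48%, 1.13% and 1.46% at day 0 and 2.97%, 3.84%, 4.80%, 3.49% and 5.16% in culture (log2 change 1.56, SE 0.22, limma adjusted p = 9.47e-05). Pvrl2, now named Nectin2 in RefSeq, is a cell adhesion molecule of the nectin family, and both of its hairpins fell. TRCN0000444010 went from 0.522%, 0.305% and 0.375% to 0.0354%, 0.144%, 0.0879%, 0.0435% and 0.137% (log2 change -2.35, SE 0.52, limma adjusted p = 0.00227). TRCN0000439806 went from 0.812%, 0.896% and 0.942% to 0.447%, 0.491%, 0.461%, 0.413% and 0.439% (log2 change -0.97, SE 0.18, limma adjusted p = 0.000659). The 5 cultures of the latter were nearly equal, and its change was -0.19, not called, with TMM factors.

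Secreted factors and the calcium-binding protein S100a6 were covered by 6 hairpins, of which 2 rose, none fell and 4 were not called, beside 17.2% called higher and 47.8% lower over all hairpins. This was the role group with a median above 0 on plain shares, 0.35, and with TMM factors it was 1.13, with 5 called higher beside 28.8% over all hairpins. S100a6 hairpin TRCN0000332631 held 3.16%, 2.45% and 2.61% at day 0 and 5.22%, 4.60%, 5.63%, 8.07% and 5.82% in culture (log2 change 1.08, SE 0.20, limma adjusted p = 0.00061). The second S100a6 hairpin, TRCN0000332711, was not called on plain shares (log2 change 0.25). It was called higher with TMM factors (log2 change 1.03), with DESeq2 size factors (1.12) and on a share without Nras TRCN0000348697 (0.64). Pcsk6, a convertase that cleaves secreted precursors, had 1 rising hairpin. TRCN0000334329 held 0.0809%, 0.121% and 0.0990% at day 0 and 0.208%, 0.256%, 0.154%, 0.213% and 0.180% in culture (log2 change 1.01, SE 0.32, limma adjusted p = 0.0162). It was not called without day 0 library 16A (limma adjusted p = 0.0766) or 16E (0.0526), or with the replicate letters as a block (0.111). The other Pcsk6 hairpin had a log2 change of -0.31 and was not called.

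Ccl20 is a chemokine that attracts cells bearing CCR6. Its single hairpin, TRCN0000353952, held 8.90%, 10.0% and 9.34% at day 0 and 19.0%, 17.1%, 15.8%, 8.19% and 7.26% in culture. The 3 cultures named for both pools lay above every day 0 library and the other 2 below, so the log2 change of 0.41 (limma adjusted p = 0.275) averages values on both sides. With TMM factors it was 1.19 and was called higher. Cxcl5, a chemokine that draws neutrophils, had 1 hairpin with a log2 change of 0.29, not called, and of 1.07, called higher, with TMM factors. Without culture 16/17B the change was 0.50 and was called (limma adjusted p = 0.045). It was -0.02 with only the cultures named for both pools and 0.74, called, with only those named for pool 16 alone (limma adjusted p = 0.00022).

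Ion channel and muscle protein genes were covered by 9 hairpins, of which 6 fell, none rose and 3 were not called, beside 47.8% called lower over all hairpins. Their median log2 change was -1.73 on plain shares and -0.95 with TMM factors, where 4 were called lower, beside 31.9% over all hairpins. Ryr2 and Ryr3 encode calcium release channels of the sarcoplasmic and endoplasmic reticulum. Ryr2 hairpin TRCN0000419216 held 0.258%, 0.354% and 0.332% at day 0 and 0.0202%, 0.0063%, 0.0481%, 0.0477% and 0.0103% in culture (log2 change -3.97, SE 0.72, limma adjusted p = 0.000581). This was the largest fall of the pool, and its cultures were widely spread, with 16/17B the lowest. The second Ryr2 hairpin, TRCN0000413349, was not called (log2 change -0.44).

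Ryr3 hairpin TRCN0000451135 held 0.169%, 0.253% and 0.172% at day 0 and 0.0399%, 0.0092%, 0.0028%, 0.0153% and 0.197% in culture. Culture 16E lay within the day 0 range and the other 4 below it. The log2 change was -3.28 with an SE of 1.14 (limma adjusted p = 0.027), and neither edgeR (adjusted p = 0.153) nor limma with TMM factors (adjusted p = 0.0677) called it. Leaving out any day 0 library, or culture 16/17B or 16D, also ended the call (limma adjusted p 0.0532 to 0.0737). Ryr3 TRCN0000452690 was far more abundant, with 4.27%, 4.68% and 4.67% at day 0 and 2.16%, 1.92%, 2.12%, 1.87% and 2.55% in culture (log2 change -1.10, SE 0.17, limma adjusted p = 0.000159). With TMM factors its change was -0.32 and was not called.

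Ttn encodes titin, the elastic filament of the sarcomere. TRCN0000362964 held 1.28%, 1.58% and 1.55% at day 0 and 0.939%, 0.460%, 0.158%, 0.125% and 0.153% in culture (log2 change -2.47, SE 0.61, limma adjusted p = 0.00484). The cultures differed among themselves, with 16/17A nearest to day 0. TRCN0000362962 was more even, with 0.417%, 0.421% and 0.422% at day 0 and 0.104%, 0.147%, 0.157%, 0.139% and 0.0977% in culture (log2 change -1.73, SE 0.28, limma adjusted p = 0.000302). Myh2, a myosin heavy chain of fast muscle fibres, had 1 hairpin that fell and 1 that was not called. TRCN0000423824 went from 0.784%, 0.586% and 0.662% to 0.0736%, 0.253%, 0.183%, 0.0655% and 0.123% (log2 change -2.46, SE 0.44, limma adjusted p = 0.000573). TRCN0000414249 had a log2 change of 1.14 with a 95% interval of -0.946 to 3.23, from culture shares between 0.0069% and 0.205%. Without culture 16/17A, its lowest, the change was 1.87 and was called higher (limma adjusted p = 0.0235), and DESeq2 called it as well (adjusted p = 0.0456). With only the cultures named for pool 16 alone the change was 2.43 and was called higher (limma adjusted p = 8.69e-06).

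Hairpins against the same gene often differed in size of change. Of the 21 genes with at least 2 hairpins, 6 had all of them called, 12 had some and 3 had none. No gene had hairpins called in both directions in the limma fit of all 8 libraries on plain shares. Myh2 had 1 of each with DESeq2, without culture 16/17A and with only the cultures named for pool 16 alone. In this last setting its log2 changes were 2.43 and -2.91. With TMM factors Slit2 and Kdm5a each had 1 called higher beside lower calls. On a share without Nras TRCN0000348697 Slit2 also had 1 called higher (log2 change 0.64) beside its falls. The 8 genes with at least 2 called hairpins were Slit2, Nfyb, Srp68, Ttn, Pvrl2, Prkdc, Sema4b and Ryr3, and all of these calls were falls. With TMM factors 4 of them, Slit2, Nfyb, Srp68 and Ttn, had at least 2 lower calls, and Nras and S100a6 had 2 higher calls each. None of the 5 rises was joined by a second called hairpin of its gene on plain shares. The gap between the highest and lowest log2 change within a gene had a median of 1.32 and ran from 0.128 to 3.68.

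Other pools of the screen carry 52 further hairpins against 28 of the 30 genes, measured in other libraries except for those of pool 17. In the same limma fit 10 of the 52 were called higher, 26 lower and 16 not called. The 26 of 52 called lower stand beside 47.8% of all hairpins. Of the 16 genes with a fall in pool 16, 14 had 26 hairpins elsewhere, of which 15 were called lower, 6 higher and 5 not called. Hairpins elsewhere were called lower for Ryr2 (pool 6, log2 changes -2.40 and -1.55), BC003331 (pool 9, -1.83 and -1.20), Plxna1 (pool 6, -0.44 and -1.18), Sema4b (pool 8, -1.35), Ttn (pool 8, -0.40 and -0.88), Sema5b (pool 8, -0.52) and Prkdc (pool 5, -0.45 and -1.87). Of these, BC003331 at -1.83, Plxna1 at -0.44, Ttn at -0.40 and Sema5b at -0.52 were not called with TMM factors, and Prkdc at -0.45 became 0.31. The 6 hairpins elsewhere called higher went against the fall in pool 16. They were directed at Nfyb (pool 6, log2 change 0.49), Ryr3 (pool 6, 0.92), Myh2 (pool 7, 1.22), Kdm5a (pool 8, 0.72), Mall (pool 8, 1.15) and Pik3cd. Mall and Myh2 each also had 1 called lower in the same pools (log2 changes -2.19 and -0.46), of which Myh2 was at 0.01, not called, with TMM factors. Pik3cd had 1 hairpin in pool 5 called lower (log2 change -2.16) and 1 called higher (log2 change 1.72).

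The 5 genes with a rise in pool 16 had 8 hairpins elsewhere, of which none was called higher, 4 were called lower and 4 were not called, beside 17.2% called higher and 47.8% lower over all hairpins. Those called lower were against Nras (pool 6, log2 change -0.83), S100a6 (pool 6, -1.36), Ptprd (pool 7, -1.03) and Pcsk6 (pool 5, -1.28), opposite to the pool 16 hairpin of the same gene. The 3 other Tsc22d1 hairpins, in pool 15, were not called. Ccl20 had 1 hairpin called higher in pool 6 (log2 change 0.43) and 1 called lower in pool 7 (log2 change -2.62). The 2 Ube2m hairpins elsewhere were both called lower (pool 7, log2 change -2.26, and pool 15, -1.26), the latter not with TMM factors.

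The cultures named for pools 16 and 17 were set against those named for pool 16 alone, with p-values adjusted over the 54 hairpins. The labels do not say how the cells of both pools came to be in the same library, and the 2 kinds of culture may differ in more than the second pool. Of the 54 hairpins 4 differed (7.41%), 16 had an unadjusted p under 0.05, and for 26 (48.1%) the ranges did not overlap. The latter counts make no allowance for the number of hairpins looked at. With 3 against 2 libraries ranges often separate by chance. Ccl20 TRCN0000353952 was higher in the cultures named for both pools by 1.16 on the log2 scale (SE 0.15, limma adjusted p = 6.45e-07). Sema4b TRCN0000339360 was likewise higher by 1.59 (SE 0.27, limma adjusted p = 6.02e-05). Klf6 TRCN0000234196 was lower there, with a log2 difference of -1.42 and shares of 0.431%, 0.824% and 1.57% against 1.91% and 2.55%. Tsc22d1 TRCN0000301933 was lower by a log2 difference of -0.63, and both had a limma adjusted p of 0.0427. Neither was called without 16/17B, 16D or 16E, where the limma adjusted p was 0.149 to 0.300 for Klf6 and 0.0697 to 0.300 for Tsc22d1. Tsc22d1 was also not called without 16/17A (limma adjusted p = 0.221) or with TMM factors (limma adjusted p = 0.201). Without the variance trend and robust estimation Sema4b alone of the 4 stayed called, and Ccl20 had a limma adjusted p of 0.0756. Prior degrees of freedom of 27.5, borrowed over hairpins, stand behind these p-values, since there are 3 and 2 libraries.

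The lung library 16E, at 4898720 pool 16 reads, has no replicate here and was compared by ranges only. Of the 54 hairpins 30 lay below the day 0 range, 19 above and 5 within it. Of the 25 hairpins that fell in culture 20 also lay below the day 0 range in this library, and of the 5 that rose 3 lay above it. Nras TRCN0000351826 and Ccl20, both among the 3 leading hairpins of culture, led here too, while the culture leader did not. Nras TRCN0000351826, which was not called in culture, held 13.9% (Wilson 95% interval 13.9% to 14.0%), while Nras TRCN0000348697 held 2.91%, below its day 0 range. S100a6 TRCN0000332631 was also below its day 0 range, at 1.25%, whereas Tsc22d1 held 7.41% and Ptprd 2.97%, both above theirs. Ccl20 held 9.21%, Ryr3 TRCN0000452690 7.89% and Klf6 7.86%, the last with a log2 ratio of 2.21 to the day 0 mean. Slit2 TRCN0000328111 held 2.19%, against at most 0.441% at day 0. Such intervals cover counting error only, since PCR reads without molecular identifiers are not independent molecules.

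Each pool also carries 8 control hairpins, which enter none of the shares above. Relative to the targeting reads of the pools a library is named for, their sum was 38.0% to 41.2% at day 0, 21.2% and 27.4% in the cultures named for pool 16 alone and 19.1% to 25.2% in the other 3. The controls did not keep a constant level. The hairpin called Non-targeting-shRNA-2 stood at 3.43%, 6.11% and 5.54% at day 0 and 0.795%, 0.551%, 0.512%, 0.628% and 0.523% in culture, a log2 difference of -3.04. Non-targeting-shRNA-1 stood at 7.21%, 6.36% and 6.42% at day 0 and 11.2%, 8.69%, 9.57%, 8.93% and 10.7% in culture, a log2 difference of 0.56. The hairpin against GFP stood at 1.83%, 1.83% and 2.08% at day 0 and 0.727%, 0.796%, 0.817%, 1.498% and 2.59% in culture. Its log2 difference was -0.76 over all 5 cultures and 0.05 in those named for pool 16 alone, and for the others the total includes pool 17. Of the 25 targeting hairpins that fell, 4 had a log2 change below that of Non-targeting-shRNA-2. The controls were not tested, and their part in the results above was not tested.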

How the data were processed

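Hairpins were amplified from genomic DNA in a PCR of 2 steps, with no molecular identifiers, and sequenced, per the labels' protocols. BWA 0.5.9 is named in the submitters' processing notes; how reads were counted and normalized is not given in the sources used here. The deposited values are a normalised signal per hairpin made by the authors. The smallest signal of a library was set to 1 read and the others were expressed as multiples of it; all 18348 of 18348 were whole to within 0.01 reads (100%).

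Reads of the 54 hairpins were scaled to their sum per library, controls left out. After adding a pseudocount of 1 read per 1000000, each pool was fitted on the log2 scale with limma 3.58.1 (R 4.3.3, variance trend, robust), day 0 and culture only. A minimum mean of 10 reads was required, which all of pool 16 met. Fold changes on this scale understate changes of rare hairpins. The threshold was a Benjamini-Hochberg adjusted p of 0.05 over 945 hairpins of 18 pools. Prior degrees of freedom for pool 16 had a median of 4.61 beside 6 residual ones. The planned test for counts was edgeR, but the files hold a scaled signal, so limma was used, with edgeR 4.0.16 (quasi-likelihood) and DESeq2 1.42.0 on recovered reads as alternatives. Effective numbers were compared by an exact permutation test (scipy 1.17.1). The steps were tested on simulated data for recovery of known changes in share and of their sign. That test did not measure false calls and does not bear on the choice between plain shares and TMM factors.

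Values per library are given for the 8 largest changes in each direction among called hairpins whose ranges do not overlap, for genes with at least 2 called hairpins and for the 3 leading hairpins at day 0 and in culture; other hairpins with library values (such as Pik3cd) were chosen after their values were seen. Role groups were assigned by gene name. Members, lists and tests were chosen with earlier results of these data known. Gene symbols are those of the files; 29 of 30 matched the RefSeq table, 2 under a newer symbol. Hairpin sequences were not used here, and some controls and 1 targeting hairpin, which the counts include, are not reported here. No 2 libraries agreed within sampling noise.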

Additional observations from a re-analysis of the deposited data

Results flagged for a closer look

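Culture 16E stood apart from the other 4 cultures for Ryr3 TRCN0000451135, which held 0.197% there and at most 0.0399% in the others. It was 1 of 53 hairpins looked at in this way, and chance gives such a gap in about 1 of 20 groups.

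The change between day 0 and culture differed between the cultures named for pools 16 and 17 and those named for pool 16 alone for 4 hairpins. The log2 difference was -1.42 for Klf6 TRCN0000234196, -0.63 for Tsc22d1 TRCN0000301933, 1.59 for Sema4b TRCN0000339360 and 1.16 for Ccl20 TRCN0000353952. The calls of Klf6 and Tsc22d1 were lost without 16/17B, 16D or 16E, and those of Sema4b and Ccl20 were kept without each culture in turn.

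Hairpins of pool 10, which none of these libraries is named for, made up 14.9% of the reads of culture 16/17A and 2.10% of those of culture 16E. The highest value among the day 0 libraries was 0.136%. Without culture 16/17A 31 hairpins of pool 16 were called, and without culture 16E 30 were.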

How the results depend on the processing

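The count of 30 called hairpins was 26 to 36 over all the alternatives tried. It was 31 with TMM factors, with DESeq2 size factors and with all reads of the library as total, 29 on the deposited values, 28 with edgeR and 31 with DESeq2. With all reads as total 1 hairpin was called higher and 30 lower; that total holds pool 17 in 3 of the 5 cultures. The rises no longer called there were Tsc22d1 (0.28), S100a6 TRCN0000332631 (0.50), Pcsk6 TRCN0000334329 (0.43) and Ptprd (0.98). Leaving out each library gave 26 to 31 calls. Of the 30 hairpins, 26 stayed called without each library in turn, and the exceptions were Pcsk6 TRCN0000334329, Sema5b TRCN0000442166, Mall TRCN0000442469 and Ryr3 TRCN0000451135. Over all the alternatives tried, scalings and tests included, 19 of the 30 stayed called. Calls gained on leaving out 1 culture included Cxcl5 (0.50), Srp68 TRCN0000349979 (-0.59), Zfp64 (-1.56), Myh2 TRCN0000414249 (1.87) and Mall TRCN0000448113 (-0.71). A share without Nras TRCN0000348697, chosen after seeing the data, gave 30 calls, 8 higher and 22 lower.

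Among hairpins called under at least 1 of the settings compared, signs turned for Kdm5a TRCN0000326118 (0.72 with TMM factors, 0.81 with DESeq2 size factors), Mxd1 TRCN0000347991 (0.66 and 0.75) and Mall TRCN0000442469 (0.055 and 0.14). Among hairpins so called, Ccl20 turned to -0.29 with only the cultures named for pool 16 alone. Signs also turned for 11 hairpins with TMM factors and 4 with only those cultures that were called under neither setting.

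The effective number fell by 1.51 on the log2 scale as an inverse Simpson index, by 0.14 as the number of hairpins above 1 per 1000 and by 0.85 with controls included, each at p = 0.0357 in the exact test. With only the cultures named for both pools it was -0.98, with only those named for pool 16 alone -1.03, and without each library -1.04 to -0.95. These designs cannot reach 0.05.

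The difference between the kinds of culture was called for 6 hairpins with TMM factors, 2 without the variance trend and robust estimation, 7 with edgeR and 2 to 6 without each culture in turn; without 16/17B, 16D or 16E it was 2. Without 16D or 16E 1 library remains on that side, which is assumed to vary like the other group.

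Day 0 and culture libraries share the letters A, D and E. With these as a replicate block 28 hairpins were called (27 of them among the 30, without Pcsk6 TRCN0000334329, Sema5b TRCN0000442166 and Ryr3 TRCN0000451135), and the effective number differed by -1.04. The call gained there was Srp68 TRCN0000349979 (log2 change -0.70, limma adjusted p = 0.0445). Deviations of same-letter libraries correlated at 0.00, -0.12 and 0.35, so the letters are not treated as pairs.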
